A study of Mus musculus musculus x Mus musculus castaneus with 8 samples.

Results

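Clade B serpins are the intracellular branch of the serpin family of protease inhibitors. The group described here holds 7 of the 27 Serpinb genes in the deposited gene table of 24421 genes: Serpinb9b, Serpinb9, Serpinb6a, Serpinb6b, Serpinb1a, Serpinb2 and Serpinb8. They were chosen by name, and Serpinb9b was chosen because its level was much higher with the drug VX680 than without it. Its values are therefore described below with no test in any comparison, and VX680 against untreated cells is described with no test for any member.

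The RNA came from cultured tail fibroblasts whose donor was female and an F1 cross of Mus musculus musculus (mus) and Mus musculus castaneus (cas), in 4 groups of 2 libraries. All cells grew for 72 h, and the additions were made 24 h after plating in equal volumes of solvent. Untreated cells received the solvent DMSO alone. The second group received 5-aza-2'-deoxycytidine (5azadC), a nucleoside analog that blocks DNA methylation. The third received VX680, which blocks the mitotic Aurora kinases. The fourth received both. Drug concentrations, and whether the 2 libraries of a group came from separate cultures, are not given in the sources used here, so p-values measure only the spread between these libraries, which may be technical.

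A serpin acts as bait: a protease cuts its exposed reactive loop, and the serpin then snaps into a new fold and traps the enzyme. Clade B members lack a classical secretion signal and mostly stay in the cytoplasm and nucleus, where they are known for protecting cells from misdirected proteases, such as granzymes from cytotoxic lymphocytes or enzymes leaking from lysosomes and granules. In the mouse the clade has expanded by gene duplication, so that several members have close relatives beside them on the same chromosome.

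Of the members, 5 lie on chromosome 13 as the table lists it (Serpinb9b, Serpinb9 and Serpinb6b on the plus strand, Serpinb6a and Serpinb1a on the minus strand), and Serpinb2 and Serpinb8 lie on the plus strand of chromosome 1. The sequence of Serpinb9b matters for reading its counts, because Serpinb9 is a close relative. Over aligned coding sequence of the GENCODE M21 annotation (build GRCm38), Serpinb9b and Serpinb9 were 85.3% identical and Serpinb6a and Serpinb6b 81.2%. The other 19 pairs lay between 53.5% and 67.1%. The stretch shown next, coding bases 439 to 558 counted from the start codon in both genes, is the 120-base window in which this pair differed most, at 31 bases, which are in capitals.
Serpinb9b: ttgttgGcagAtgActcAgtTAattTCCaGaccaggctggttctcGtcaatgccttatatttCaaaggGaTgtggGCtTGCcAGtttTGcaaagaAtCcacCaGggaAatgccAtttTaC
Serpinb9: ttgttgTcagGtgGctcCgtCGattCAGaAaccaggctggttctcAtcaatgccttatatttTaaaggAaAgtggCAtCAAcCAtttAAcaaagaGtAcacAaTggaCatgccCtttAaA
The next sequence is the longest run that the 2 genes share without a difference, 62 bases, where a read that lies wholly inside it cannot be given to either gene.
Shared run: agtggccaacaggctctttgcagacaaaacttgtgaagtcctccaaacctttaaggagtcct

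Such runs were short. Of the 1082 windows of 50 bases along the Serpinb9b coding sequence, 16 (1.48%) also occurred in a transcript of another gene, Serpinb9 or Gm7242. The share was 1.21% for Serpinb9, 3.75% for Serpinb6a, 6.19% for Serpinb6b and 5.79% for Serpinb1a, and it was 0 for Serpinb2 and Serpinb8. How the counting treated reads that match several genes is not given in the sources used here, so values of the members with shared windows carry that uncertainty.

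The libraries held between 6908503 and 11169532 reads in genes. Levels are given as CPM, the reads of a gene scaled to library size with edgeR's normalization factors. The replicates of a group spread more than counting error alone allows, with a chi-square per degree of freedom of 7.50 for untreated, 19.9 for 5azadC, 3.02 for VX680 and 2.74 for both drugs. Fold changes are on the log2 scale ± SE from edgeR's quasi-likelihood fit over all 8 libraries, and each adjusted p is from that test with Benjamini-Hochberg adjustment over 12643 genes, called at 0.05. Of 10 fibroblast markers all had reads in every group, among them Col1a1 at 13978 and Vim at 3812 CPM in untreated cells, though Lum had only 7 to 29 reads per group. Their summed levels were 34713 to 39447 CPM in untreated libraries, 22753 to 26354 with 5azadC, 17323 to 17557 with VX680 and 14491 to 15042 with both. Members of the list moved both ways: of 9 tested, 6 were lower and 2 higher with both drugs against untreated. Over all genes, 27.3% were lower and 28.4% higher in that comparison. With both drugs Col1a1 was at 1882 and Vim at 6798 CPM.

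Of the 7 members, 5 had enough reads to enter the test; Serpinb6b and Serpinb2 did not. Serpinb9b entered through the libraries that received VX680, where it was high. Counts over these 5 are therefore a description and not a property of all members. Among the other 20 Serpinb genes in the table, 10 had 0 reads in all 8 libraries and 9 reached between 1 and 9 reads in their highest library. The remaining one was Serpinb1c, described below.

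Serpinb9b, the close relative of Serpinb9, was nearly silent in untreated fibroblasts and readily detected when VX680 was present. Its reads were 2 and 0 in the untreated libraries, 12 and 8 with 5azadC, 140 and 102 with VX680, and 151 and 170 with both drugs. In CPM these were 0.181 and 0, 1.34 and 1.10, 13.7 and 13.6, and 21.2 and 23.4. No library of any group overlapped with one of another group, and the order from low to high was untreated, 5azadC, VX680, both. The share of all genes with this whole order was not counted, nor that for VX680 against 5azadC. Over all genes tested, libraries lay apart without overlap and higher in 34.8% for 5azadC against untreated, 38.4% for VX680 against untreated, 39.5% for both against untreated, 29.9% for both against 5azadC and 27.6% for both against VX680.

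Against the 2 reads of the untreated group, the ratio of scaled reads was 122 with VX680 (95% counting interval 33.4 to 1013). This is the contrast that chose the gene; 46.1% of all genes tested were called in it. The other 4 libraries are described and are not separate support, since the gene was chosen with results of these data known. In cells that also received 5azadC, Serpinb9b was 4.17 ± 0.31 (log2), or 18.0-fold, higher with VX680. Its means there were 22.3 ± 1.58 CPM with both drugs and 1.22 ± 0.17 with 5azadC (SD, n = 2 each). Over the 13 alternative analyses of this comparison the log2 difference lay between 4.05 and 4.32.

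With 5azadC alone Serpinb9b had a few reads. The 20 reads with 5azadC against 2 in untreated cells gave a ratio of 11.0 (95% counting interval 2.67 to 96.9). With both drugs the ratio to untreated was 199 (54.8 to 1654). Both ratios rest on the same 2 untreated reads, which came from untreated replicate 1. Without that library the untreated group had 0 reads, and against a floor of 3 reads in the remaining library the level was at least 2.80-fold higher with 5azadC and at least 50.8-fold higher with both.

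With both drugs Serpinb9b was 0.71 ± 0.23 (log2) above VX680 alone, a 1.63-fold difference whose groups did not overlap. On the log2 scale the fitted change with both drugs differed from the sum of the single-drug changes by -2.59 ± 0.78. That value contains the contrast that chose the gene and rests on the same 2 untreated reads. It is given as a description, and whether the drugs add was not tested for this gene.

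**Figure D1:**
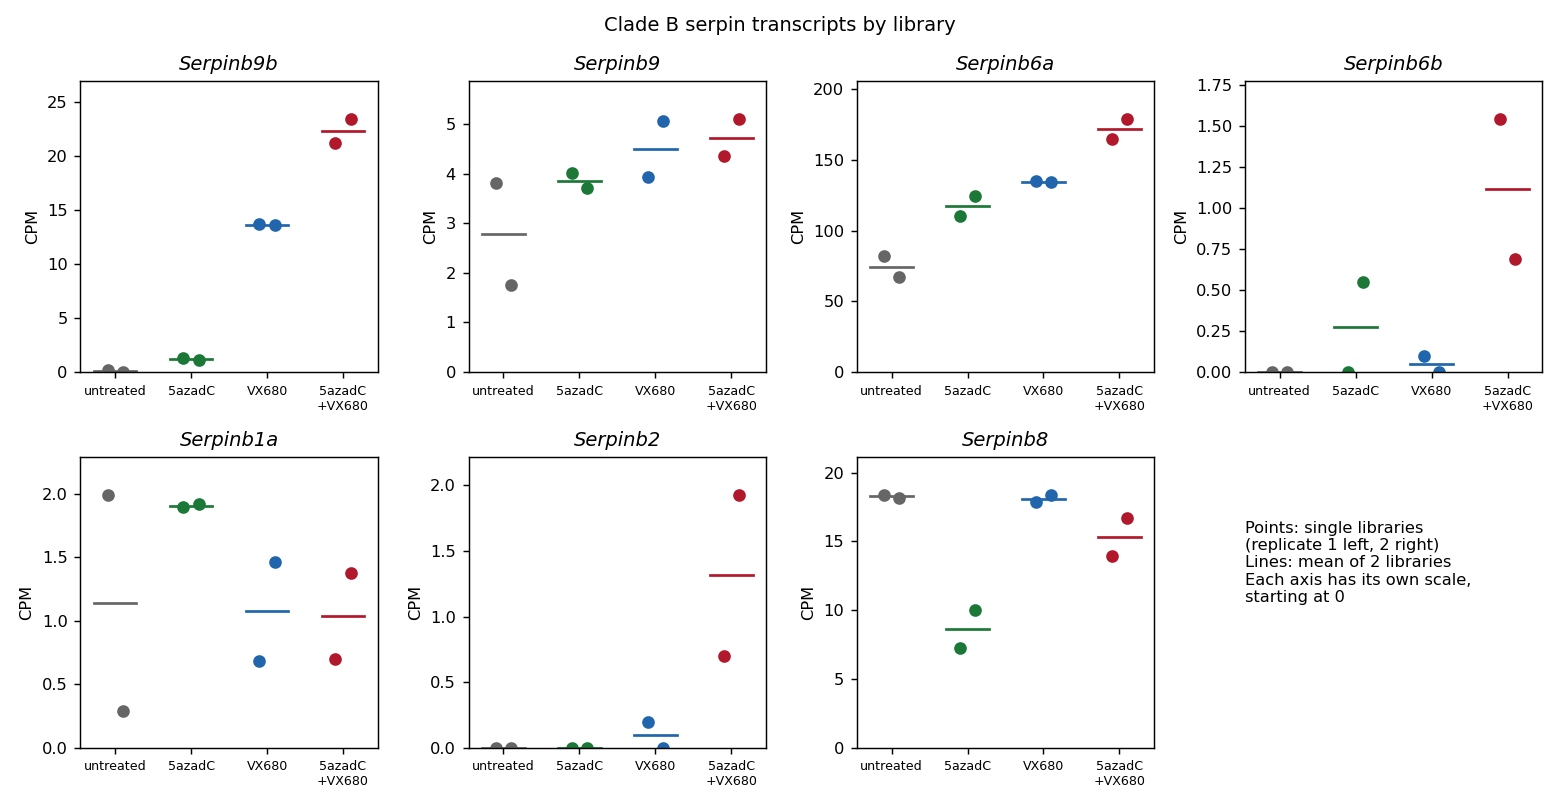
Level of each clade B serpin in CPM (vertical axis, starting at 0, with its own scale in each panel) by treatment group (horizontal axis); points are single libraries and lines the mean of 2. Serpinb9b and Serpinb6a climb in the order untreated, 5azadC, VX680, both, and Serpinb8 is low with 5azadC alone, at 7.24 and 10.0 CPM.

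Serpinb9, the best known member of this pair and an inhibitor of granzyme B, stayed low in every group. Its reads were 42 and 12 in untreated libraries, 36 and 27 with 5azadC, 40 and 38 with VX680, and 31 and 37 with both. The group means were 2.78 ± 1.45, 3.85 ± 0.22, 4.49 ± 0.80 and 4.73 ± 0.53 CPM (SD, n = 2 each), and each group overlapped with its neighbour in that order. Its libraries lay apart and higher in VX680 against untreated, both against untreated and both against 5azadC. Over all genes this held for 38.4%, 39.5% and 29.9%. No tested difference passed: 0.41 ± 0.40 for 5azadC against untreated (adjusted p = 0.434), 0.29 ± 0.38 for both against 5azadC (0.622; 95% interval -0.54 to 1.12) and 0.09 ± 0.38 for both against VX680 (0.936), all by edgeR. Both drugs against untreated gave 0.70 ± 0.39 (adjusted p = 0.145, edgeR), a value that depends on untreated replicate 1: without it the difference was 1.41 (adjusted p = 0.0358). The difference between Serpinb9 and Serpinb9b was not tested, since Serpinb9b was chosen for its level with VX680.

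Levels of different genes can be compared only per length. In CPM per kilobase of the deposited gene length, Serpinb9 stood above Serpinb9b in untreated cells (0.821 against 0.0472) and with 5azadC (1.14 against 0.634). The order was the other way round with VX680 (1.32 against 7.11) and with both drugs (1.39 against 11.6).

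Serpinb6a, an inhibitor of cathepsin G and other serine proteases, was the most abundant member in every group. Its reads were 904 and 459 in untreated libraries, 991 and 910 with 5azadC, 1374 and 1012 with VX680, and 1174 and 1298 with both. In CPM these were 81.9 and 67.2, 110 and 125, 135 and 135, and 165 and 179. The group order was that of Serpinb9b, with no overlap between groups. Over all genes, libraries lay apart and higher in 27.6% to 39.5%, in the comparisons given for Serpinb9b.

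5azadC raised Serpinb6a by 0.65 ± 0.11 (log2; adjusted p = 0.000408, edgeR) and both drugs raised it by 1.20 ± 0.11 over untreated (adjusted p = 9e-07, edgeR). VX680 alone stood 0.85 ± 0.11 above untreated, given with no test. In both drugs against 5azadC the rise was 0.55 ± 0.11 (adjusted p = 0.00239, edgeR). Both drugs against VX680 gave 0.35 ± 0.11 and missed the threshold (adjusted p = 0.0728, edgeR). Over the 13 alternative analyses that difference lay between 0.29 and 0.41, and not all of them passed. It passed with no filter on low counts (adjusted p = 0.0271, edgeR). It also passed when either 5azadC library was left out. Those libraries are not part of this difference and bear on it through the shared estimate of the spread. The interaction was -0.30 ± 0.15 (adjusted p = 0.225, edgeR).

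Serpinb6a overlaps Nqo2, a quinone reductase gene, Ripk1, a kinase of cell death signalling, and the antisense gene 1110046J04Rik (50 reads in all 8 libraries) on the opposite strand in GENCODE M21. Libraries were made with a strand-marking kit, but whether the counting used strand is not given in the sources used here. Nqo2 rose by 0.89 with both drugs against untreated (adjusted p = 0.00156, edgeR) and differed by 0.52 between both and 5azadC (adjusted p = 0.0671), while Ripk1 differed by -0.20 in the latter comparison (adjusted p = 0.342). The part of these overlaps in the Serpinb6a counts was not tested. Serpinb9b overlaps 1 gene on the opposite strand, Gm36099, which the deposited table does not list.

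Serpinb6b, the close relative of Serpinb6a, had 16 of its 21 reads with both drugs, at a level near the limit of detection. It had 0 and 0 reads in untreated libraries, 0 and 4 with 5azadC, 1 and 0 with VX680, and 11 and 5 with both. With both drugs the scaled reads were at least 6.63-fold higher than in untreated cells, taking 3 reads over the group as the floor, and stood at 4.53 times the 5azadC group (95% counting interval 1.46 to 18.6). With no filter on low counts, the difference of both from untreated had an adjusted p of 0.0121 and that from 5azadC one of 0.380 (edgeR, 18995 genes).

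Serpinb2, the member that inhibits urokinase, the plasminogen activator encoded by Plau, had 19 of its 21 reads with both drugs. Its reads were 0 and 0 in untreated libraries, 0 and 0 with 5azadC, 2 and 0 with VX680, and 5 and 14 with both. The level with both drugs was at least 7.87-fold above untreated and at least 7.17-fold above 5azadC, against the same floor. Its ratio to VX680 was 11.7 (95% counting interval 2.82 to 104). With no filter the adjusted p was 0.00757 against untreated, 0.0200 against 5azadC and 0.197 against VX680 (edgeR, 18995 genes). Serpinb2 overlaps Serpinb10 on the same strand in GENCODE M21, where strand cannot separate reads; Serpinb10 itself was counted at 0 and 1 reads with VX680, 0 and 2 with both and 0 elsewhere. All these ratios cover counting error only, and the 5 and 14 reads themselves stood 0.702 and 1.93 CPM apart.

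Serpinb8, which inhibits the proprotein convertase furin in biochemical assays, moved in another way. Its reads were 203 and 124 in untreated libraries, 65 and 73 with 5azadC, 182 and 138 with VX680, and 99 and 121 with both. In CPM the untreated libraries (18.4 and 18.2) and the VX680 libraries (17.8 and 18.4) overlapped, the libraries with both drugs lay below them (13.9 and 16.7), and those with 5azadC lay lowest (7.24 and 10.0). Libraries lay apart and lower in 33.6% of all genes for 5azadC against untreated, 38.6% for both against untreated and 28.3% for both against VX680. Serpinb8 fell by 1.09 ± 0.21 (log2) with 5azadC (adjusted p = 0.000922, edgeR).

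With VX680 added to 5azadC, Serpinb8 was 0.84 ± 0.21 above 5azadC alone (adjusted p = 0.0117, edgeR). This call depended on single libraries: the difference was 0.61 (adjusted p = 0.0747) without 5azadC replicate 1 and 0.69 (0.113) without replicate 2 of both drugs. Against untreated, cells with both drugs differed by -0.26 ± 0.20 (adjusted p = 0.293, edgeR; 95% interval -0.69 to 0.17), and VX680 alone by -0.01 ± 0.19, given with no test. The interaction was 0.85 ± 0.29 and missed the threshold (adjusted p = 0.0635, edgeR). Over the 13 alternative analyses the interaction lay between 0.62 and 1.11, and the highest value was the one without 5azadC replicate 2.

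Serpinb1a, an inhibitor of the neutrophil proteases elastase, proteinase 3 and cathepsin G, was low and scattered. Its reads were 22 and 2 in untreated libraries, 17 and 14 with 5azadC, 7 and 11 with VX680, and 5 and 10 with both. The untreated libraries, at 1.99 and 0.293 CPM, spanned the levels of all other groups. None of its differences passed, with -0.86 ± 0.72 for both against 5azadC (adjusted p = 0.417, edgeR; 95% interval -2.40 to 0.68).

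Its relative Serpinb1c, the only Serpinb gene beyond the 7 with at least 10 reads in a library, had 0 and 1 reads in untreated libraries, 28 and 3 with 5azadC, 3 and 1 with VX680, and 14 and 21 with both. The 5azadC value came mostly from 1 library. Serpinb1c entered the test through libraries that received 5azadC, where it was high, so its differences from untreated are given with no test. Against the single untreated read the ratio was 34.0 with 5azadC (95% counting interval 5.67 to 1387) and 43.5 with both drugs (7.31 to 1766). Fits that left out single libraries were added after seeing the data. In them the log2 change from untreated lay between 2.57 and 6.96 with 5azadC and between 3.90 and 7.38 with both. Both drugs against 5azadC did not pass (0.40 ± 0.69, adjusted p = 0.711, edgeR).

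Counted over the 4 tested members other than Serpinb9b, 2 were called with 5azadC against untreated (Serpinb6a higher, Serpinb8 lower), where 42.2% of all genes were called, 22.6% higher and 19.6% lower. Both drugs against untreated called 1, Serpinb6a, higher, where 55.7% of all genes were called (28.4% higher, 27.3% lower). Both drugs against 5azadC called 2, both higher (Serpinb6a and Serpinb8), where 24.8% of all genes were called, 9.98% higher and 14.8% lower. The median log2 change of these 4 there was 0.42, beside -0.004 over all genes. Both drugs against VX680 called 0 of 4 by edgeR (1 at an unadjusted p under 0.05), 0 by DESeq2 and 0 by limma, where 6.5% of all genes were called. In the interaction edgeR called 0 of 4 (1 at an unadjusted p under 0.05; 0 by DESeq2 and limma), where 15.6% of all genes were called. The comparisons against untreated share those libraries and are not separate evidence of one another.

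**Figure D2:**
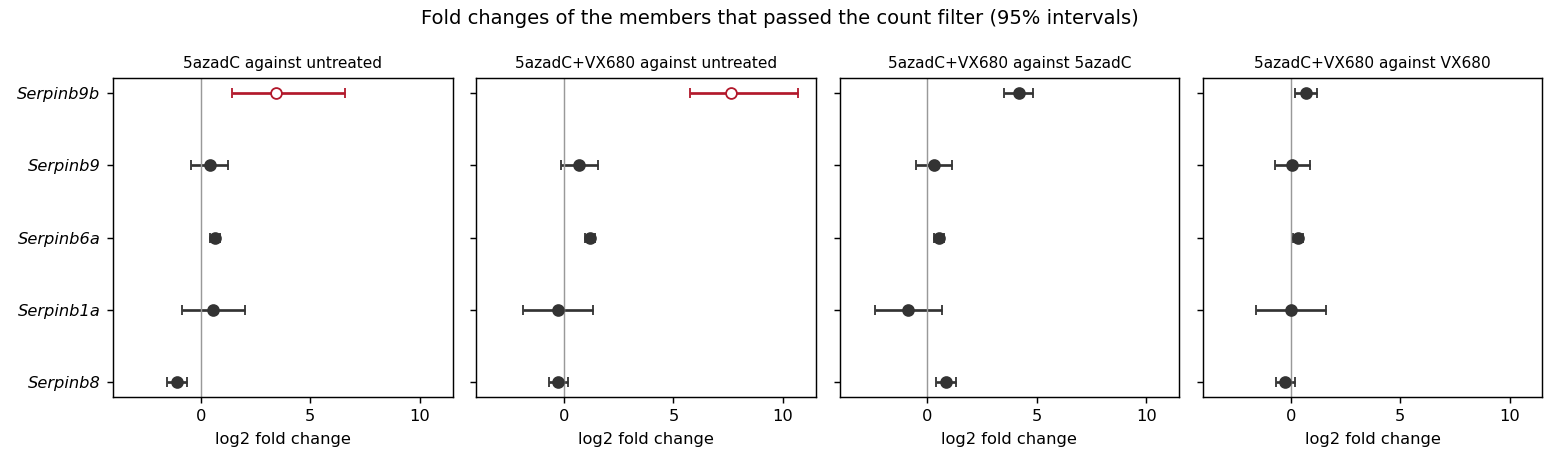
Log2 fold change (horizontal axis) with its 95% interval in 4 comparisons, for the 5 members with enough reads to enter the test. Open symbols are Serpinb9b read ratios against the 2 untreated reads with counting intervals, and filled symbols are edgeR estimates. Serpinb9b stands at 4.17 in both drugs against 5azadC, where Serpinb6a is at 0.55 and Serpinb8 at 0.84. All Serpinb9b values and intervals are a description and no test.

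Most of the proteases that clade B serpins are known to inhibit were barely present. Of a list of 24 such proteases, 9 had enough reads to be tested. Gzmb, encoding granzyme B, had 1 read in all, Elane (neutrophil elastase) had 1, and Ctsg (cathepsin G) had 0 in all 8 libraries. Gzmm, encoding granzyme M, had 39 reads in untreated, 39 in 5azadC, 69 in VX680 and 57 in both, and did not pass in both against 5azadC (0.72 ± 0.42, adjusted p = 0.229, edgeR).

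In both drugs against 5azadC, 2 of the 9 rose and 2 fell, with a median of 0.37, beside 9.98% of all genes higher, 14.8% lower and a median of -0.004. The lysosomal cysteine proteases moved apart: Ctsb rose by 0.70 and Ctsl by 0.55, while Ctsk, a collagen-degrading cathepsin, fell by 0.72. Plat, the tissue plasminogen activator, fell by 0.51. Their adjusted p ranged from 0.000128 for Ctsb to 0.0477 for Ctsk (edgeR). Furin, against which Serpinb8 acts in assays, was at 239 ± 32.5 CPM in untreated cells, 390 ± 31.0 with 5azadC, 295 ± 9.25 with VX680 and 329 ± 15.4 with both (SD, n = 2 each). Its lowest group was thus untreated, and its highest 5azadC, the group in which Serpinb8 was lowest; the relation was not tested.

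Genes of plasminogen activation, the pathway of Serpinb2, gave 4 higher and 1 lower of 8 tested in both against 5azadC, with a median of 0.33, beside the same shares of all genes. Plaur, the urokinase receptor, rose by 0.93, Serpine2, a secreted inhibitor of plasminogen activators and thrombin, by 1.18, and Plat fell as above (adjusted p from 0.00101 for Plaur to 0.0156 for Plat, edgeR). Plau itself stood at 22.9, 49.3, 50.3 and 52.0 CPM in untreated, 5azadC, VX680 and both. It rose by 1.10 ± 0.12 with 5azadC (adjusted p = 7.05e-06, edgeR) and did not pass in both against 5azadC (0.07 ± 0.11, adjusted p = 0.663), the comparison in which Serpinb2 went from 0 to 19 reads.

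Among serpins of other clades, 5 of 31 were tested, with 3 higher and 2 lower in both against 5azadC, again beside 9.98% and 14.8% of all genes. Serpinf1, a secreted serpin also known as pigment epithelium-derived factor, fell by 1.34 (adjusted p = 4.13e-07, edgeR). Serpinc1, encoding antithrombin, had 2 reads with 5azadC and 24 with both, too few for a stable fold change.

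Interferon-stimulated genes and p53 targets were read beside the serpins in the same comparisons. All 23 interferon-stimulated genes tested rose with 5azadC against untreated (median 5.33), where 22.6% of all genes did and the median of all genes was 0.002, and 21 fell in both against 5azadC (median -1.64), where 14.8% of all genes did and where Serpinb9b was higher. Of 16 tested p53 targets, all rose with 5azadC (median 1.80), and 5 rose and 1 fell in both against 5azadC (median 0.15). Serpinb9b was also higher in the other 2 comparisons of both drugs. In both against untreated, 21 of the 23 interferon-stimulated genes and all 16 p53 targets rose, where 28.4% of all genes did. In both against VX680, 14 of the 23 and 7 of the 16 rose and 0 fell, beside 310 higher of 12643 genes. The relation to Serpinb9b was not tested.

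Clade B serpins are expressed in leukocytes and epithelia, so markers of such cells were read in the same libraries. Of 17 leukocyte markers, 7 had 0 reads in all 8 libraries, among them Cd3e, Adgre1 and Nkg7, and Ptprc, the common leukocyte antigen, had 2 reads, both with the 2 drugs together. Their summed level was 16.4 to 19.1 CPM in untreated libraries, 16.8 to 21.6 with 5azadC, 21.3 to 21.7 with VX680 and 20.7 to 27.4 with both, most of it Cd68 and Lyz2. Cd68 followed the order of Serpinb9b, with means of 5.14, 11.3, 14.2 and 17.8 CPM, while Lyz2 ran the other way, from 221 reads in untreated to 54 with both. Of 8 mast cell markers 4 were at 0 in all libraries, and the summed level was at most 1.89 CPM. Of 12 keratinocyte markers 1 was at 0, and the sum lay between 3.62 and 11.2 CPM.

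Endothelial markers, of which 1 of 9 was at 0 in all libraries, summed to 126 to 143 CPM in untreated libraries, 218 to 233 with 5azadC, 196 to 198 with VX680 and 176 to 197 with both, mostly Eng and Flt1. Flt1 was at 11.8 CPM in untreated cells, 31.9 with 5azadC and 84.0 with VX680. Vwf went from 0.345 CPM (7 reads) in untreated cells to 3.56 (63 reads) with VX680. Eng, in contrast, went from 122 to 105 CPM. Of 5 endothelial markers tested in VX680 against untreated, 4 were higher and 0 lower, beside 3005 and 2829 of 12643 genes. Of the rest of the list, with VX680 Tek had 43 reads, Pecam1 30, Kdr 5, Cdh5 2, Tie1 0 and Emcn 0. Whether cells of these types were present, and any part of them in the serpin levels, was not tested. In bulk RNA, a change in the number of cells that express a gene and a change in its RNA per cell cannot be told apart.

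The genes whose profile over the 8 libraries was most like that of Serpinb9b were sought among the 409 tested genes whose log2 CPM averaged 1 or more and ranged over 3 or more. The 5 closest, by Pearson correlation of log2 CPM, were Cystm1 (0.995), Maff (0.991), Akr1b8 (0.987), Cst6 (0.984) and Fabp4 (0.982). Cystm1 encodes a small cysteine-rich membrane protein, Maff a basic leucine zipper transcription factor, Akr1b8 an aldo-keto reductase, Cst6 the protease inhibitor cystatin M, and Fabp4 a fatty acid binding protein. Maff went from 5.22 CPM in untreated cells to 16.2 with 5azadC, 92.1 with VX680 and 86.7 with both. Cst6 went from 1.22 to 3.22, 8.06 and 15.8 CPM, and like Serpinb9b its mean was higher with both drugs than with VX680. These correlations are a description over 8 libraries that fall into 4 groups, and every point shares its library and depth between the genes.

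**Figure D3:**
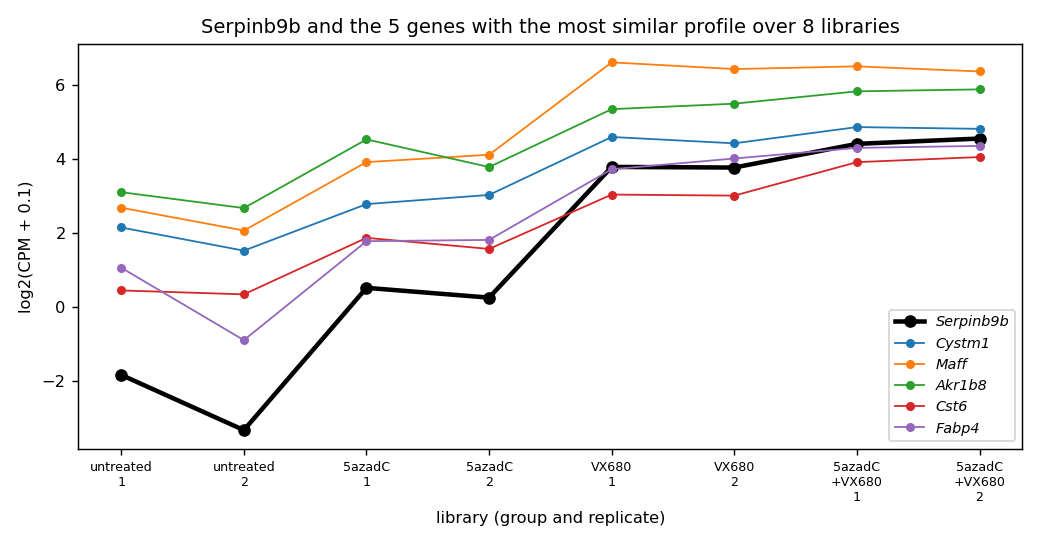
Log2 of CPM + 0.1 (vertical axis) in each of the 8 libraries (horizontal axis) for Serpinb9b, in black, and the 5 genes with the most similar profile; lines only join the points of a gene. All 6 are lowest in the untreated libraries and higher in each VX680 library than in any 5azadC library.

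Among the other members, Serpinb6a was most like Serpinb9b over the 8 libraries, with a Pearson correlation of 0.938, followed by Serpinb9 (0.762), Serpinb2 (0.697), Serpinb6b (0.545), Serpinb8 (0.134) and Serpinb1a (0.0144). The limits on mean and range were not applied to the members. Outside the libraries with both drugs, Serpinb2 had at most 2 reads and Serpinb6b at most 4, so their correlations rest on few reads.

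Because the cells are hybrid, reads that cover a sequence variant can be given to the mus or the cas allele, a measure that the choice of members did not use. Between 26.1% and 26.9% of the reads of a library were so assigned. For Serpinb9b only 2 of 585 reads (0.342%) were assigned, both to cas, and for Serpinb9 11 of 263 (4.18%), so the allele that gave the Serpinb9b reads cannot be read from these data. Such low shares were uncommon: of 9900 genes with at least 500 reads, 291 (2.94%) had under 1% assigned, and the median was 27.5%.

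Serpinb6a and Serpinb8 were the members with enough assigned reads for a test. Serpinb6a gave slightly more mus than cas reads in every library. Its mus share was 57.1% in untreated (715 assigned reads), 60.0% with 5azadC (962), 57.9% with VX680 (1292) and 58.7% with both (1352). Single libraries lay between 55.2% and 61.8%, each with an exact (Clopper-Pearson) 95% interval above 50%. The median gene had 46.6% mus reads in untreated cells.

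Serpinb8 gave fewer mus reads, with shares of 32.2% (90 assigned reads), 18.2% (33), 27.3% (99) and 21.9% (73). The untreated libraries were far apart, at 42.6% and 16.7%. The mus to cas ratio changed in neither gene beyond the spread between libraries: with 5azadC by 0.16 ± 0.19 for Serpinb6a (adjusted p = 0.942) and by -0.95 ± 0.88 for Serpinb8 (0.916), and with both drugs against 5azadC by -0.08 ± 0.18 (0.990) and 0.34 ± 0.87 (0.997), in an edgeR fit over 10301 genes. Both drugs against untreated gave 0.08 ± 0.19 (0.971) and -0.61 ± 0.76 (0.908). Of these genes 0.282%, 0.136% and 0.515% were called in the 3 comparisons, in that order. In each, 0 of the 2 members passed, and 0 at an unadjusted p under 0.05; no other tool was run on the allelic counts.

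**Figure D4:**
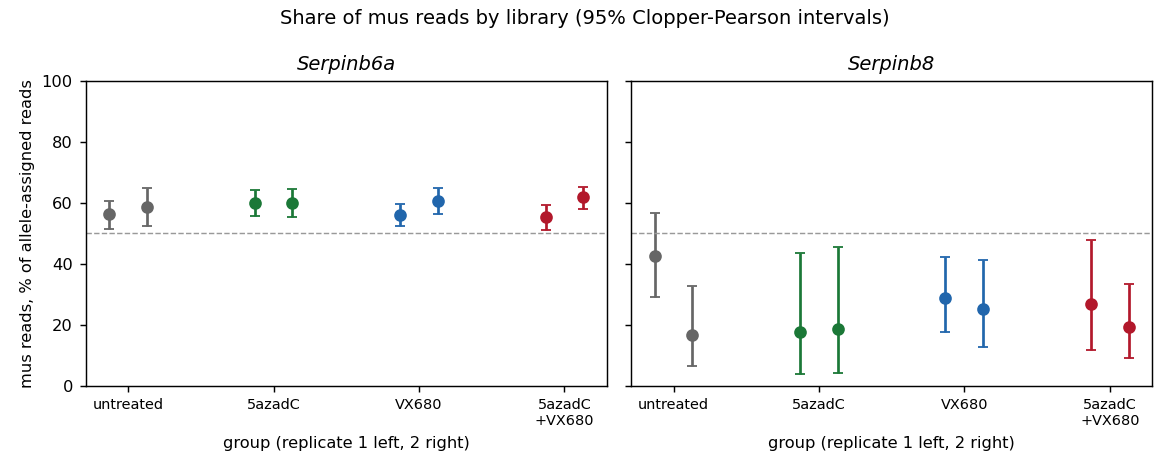
Share of mus reads among allele-assigned reads, in percent (vertical axis, dashed line at 50), for Serpinb6a and Serpinb8 in each library by group (horizontal axis); bars are exact 95% intervals for counting error. Serpinb6a lies between 55.2% and 61.8% in all 8 libraries, and Serpinb8 has wider intervals from fewer reads.

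The authors' deposited table of allelic expression lists the same 2 members and none of the other 5. In the authors' deposited table Serpinb6a rose with both drugs by 1.32 on the mus allele (false discovery rate 4.08e-10) and by 1.30 on the cas allele (1.82e-09), against untreated. For 5azadC the authors' deposited table gives 0.71 (0.0242) and 0.57 (0.0726) for Serpinb6a, and -1.81 (0.102) and -0.85 (0.111) for Serpinb8.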

How the data were processed

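Total RNA for 8 libraries (4 groups of 2, taken from the sample labels) was prepared with Trizol and a directional dUTP kit, per the labels' protocols. The submitters' processing notes name the build mm9 and the tools TopHat2 2.0.10, HOMER 4.8 and edgeR, with no role for any of them. Coordinates are not given, because the annotation used here has another build. The authors deposited raw counts per gene for both alleles together and raw counts per allele. The other quantity used from the deposited table, its length column, is the gene length in bases. The deposited normalized signal served only an alternative. From the authors' deposited allelic tables, the log2 fold change and the false discovery rate (an adjusted p-value) were taken, as named in the file headers.

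Counts were tested with edgeR 4.0.16 in R 4.3.3 (filterByExpr with a minimum count of 10, TMM, 1 mean per group, quasi-likelihood tests, log CPM with a prior count of 2). The allelic model had 1 term for each library and a mus term for each group, and covered genes averaging 10 or more assigned reads per library. Serpinb9b was fitted in the same model as all genes, but its p-values are not given, since it was chosen for its level with VX680. Ratios against 2 reads or fewer carry exact 95% counting intervals, and a group at 0 was set to a floor of 3 reads. Intervals and floors cover counting error only. The fits were tested on simulated data. Alternatives were DESeq2 1.42.0, limma 3.58.1 on log2(deposited signal + 1), other size factors, no filter, a replicate block, other allelic minimums of 20 reads or none, and leaving out each library. Sequence sharing was computed from GENCODE M21 transcripts.

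The members and gene lists were chosen with earlier results of these data known. Named genes are all members, Serpinb genes with at least 10 reads in a library, up to 4 called genes of the lists of target proteases, plasminogen activation and serpins of other clades with the largest change in both drugs against 5azadC, and the 5 genes most like Serpinb9b; 1 gene that this rule names is not reported here. Plau, Furin, Gzmb, Gzmm, Elane, Ctsg, single marker genes and overlapping genes were named beyond that rule, after their values were seen.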

Additional observations from a re-analysis of the deposited data

How the results depend on the processing

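For total levels, 290 of the alternative values kept the direction and side of the threshold, 7 gained a call, 2 lost one and 13 changed sign. For allelic ratios 55 were the same and 5 changed sign. The values for total levels include those of Serpinb9b, except in the interaction, as a description only. The member counts that follow leave Serpinb9b out. The number of members called with both drugs against VX680 was 0, but 1 with no filter on low counts. In the interaction it was 0. Both counts moved when single libraries were left out. The cause was not tested. No pairing by replicate number was seen over all genes: the replicate differences of any 2 groups correlated between -0.0622 and 0.0326. This cannot show whether libraries with the same number were handled together. With the replicate number as a block, as many members were called as without it. These were 2 with 5azadC against untreated, 1 with both against untreated and 2 with both against 5azadC. With both against VX680 and in the interaction there were 0. Over all genes, the shares called without the block were 42.2%, 55.7%, 24.8%, 6.5% and 15.6%, in that order.

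All sign changes were in differences that no test called. For Serpinb1a, both against untreated was 0.36 with limma on the deposited signal and lay between -0.93 and 1.76 when single libraries were left out. Its difference of both from VX680 was -0.0078 with no filter, -0.023 with DESeq2 and -0.029 with limma, and lay between -0.56 and 0.59 over left-out libraries. Left-out libraries also moved Serpinb1a with 5azadC (-0.076 to 2.62) and in the interaction (-2.61 to 0.082), and Serpinb9 in both against VX680 (-0.10 to 0.27) and in the interaction (-1.02 to 0.078). Among allelic changes they moved Serpinb8 with 5azadC (-1.70 to 0.18) and with both (-1.36 to 0.51), and Serpinb6a with both against untreated (-0.12 to 0.27) and against 5azadC (-0.28 to 0.11). limma on the deposited signal shifted the median of all genes by 0.117 in both against untreated and by 0.104 in both against 5azadC. Where a left-out library leaves a group with 1, that library is assumed to vary like the others.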
